A study of Mus musculus with 4 samples.

Results

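NEK7, the NLRP3 inflammasome and the IL-1 family were followed through 10 genes of the deposited table, which lists 34745 mouse genes. The 10 genes were Nek7, Nlrp3, Pycard, Casp1, Casp4, Gsdmd, Il1b, Il18, Il1rn and Il1f9, the last being the symbol in the table for Il36g. They were found by their symbols, and all 10 were present. The list itself had been chosen from values of this same comparison, so that the differences of these genes between the groups are given as a description, with no p-value.

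RNA was sequenced from bone marrow-derived macrophages (BMMs), primary cells of wild-type male C57BL/6 mice that were 8 weeks old. All cells had been kept without FBS for 12 h and then received RANKL, the cytokine that turns such macrophages into osteoclasts, at 100 ng/mL for 24 h. In the RANKL+DI group, dimethyl itaconate (DI), a cell-permeable derivative of the macrophage metabolite itaconate, was added together with RANKL, and in the RANKL+Veh group the vehicle, DMSO, was added. Each group had 2 libraries, and no library without RANKL was analysed here, so the effect of RANKL itself on these genes was not measured. The labels give the dose of DI as 20 mM, and the study's methods give it as 20 μM, the unit of its other culture doses of DI. As these sources conflict, the dose is treated as uncertain here. Nothing states whether the libraries of a group came from separate animals or cultures, and the errors below then measure only the spread between these libraries, which may be technical.

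The NLRP3 inflammasome is a protein complex of macrophages that assembles after infection or tissue damage. NLRP3 is the sensor, the kinase NEK7 binds it and is needed for its activation, and the adaptor ASC, the product of Pycard, links the sensor to caspase-1. Caspase-1 matures the cytokines IL-1β and IL-18 and cleaves gasdermin D, which forms pores in the plasma membrane. Caspase-11, the product of the mouse gene Casp4, also cleaves gasdermin D, in response to lipopolysaccharide inside the cell. IL-1 receptor antagonist, from Il1rn, blocks the IL-1 receptor, and IL-36γ, from Il1f9, is a cytokine of the same family that acts on its own receptor.

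Sequences before a RefSeq start are shown for 4 genes of the list. These are Nek7 and Il1rn, which had the lowest log2 fold changes of the list, Il1f9, which had the highest, and Casp4, whose window held the most matches to the motifs searched. The sequences are from RefSeq on GRCm38.p6 and run 5′ to 3′ on the strand of the gene towards its RefSeq start, and bases that GENCODE M21 places in an exon were left out. The stretch shown for Nek7 lies inside the deposited gene, which reaches to 138620141 on the minus strand, so it is not upstream of that gene model. Capitals mark a match to an AP-1 element (Il1rn) or an NF-kB element (Casp4).
Nek7, chr1:138619758-138619903, minus strand: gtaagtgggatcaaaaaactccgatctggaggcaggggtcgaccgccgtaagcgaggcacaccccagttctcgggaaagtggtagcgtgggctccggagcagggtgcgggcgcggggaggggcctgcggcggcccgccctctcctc
Il1f9, chr2:24186226-24186475, plus strand: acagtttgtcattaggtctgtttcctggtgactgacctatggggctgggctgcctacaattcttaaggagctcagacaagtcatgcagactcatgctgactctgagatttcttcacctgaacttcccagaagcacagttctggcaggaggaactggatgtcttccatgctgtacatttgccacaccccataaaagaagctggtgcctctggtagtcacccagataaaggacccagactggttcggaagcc
Il1rn, chr2:24336610-24336852, plus strand: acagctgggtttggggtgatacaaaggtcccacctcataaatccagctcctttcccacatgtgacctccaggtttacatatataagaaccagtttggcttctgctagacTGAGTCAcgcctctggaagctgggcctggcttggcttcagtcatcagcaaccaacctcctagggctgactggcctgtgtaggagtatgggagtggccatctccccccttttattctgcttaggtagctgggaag
Casp4, chr9:5308599-5308827, plus strand: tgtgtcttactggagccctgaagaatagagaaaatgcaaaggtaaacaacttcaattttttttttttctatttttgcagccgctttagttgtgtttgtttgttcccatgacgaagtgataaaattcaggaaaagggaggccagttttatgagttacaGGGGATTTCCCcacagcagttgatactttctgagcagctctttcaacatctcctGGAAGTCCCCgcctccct

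RefSeq windows of 250 bases before the start were at hand for 9 of the 10 genes, 13 windows in all. The Nek7 window stood apart in base composition, with 58.8% GC and 17 CpG pairs, while the windows of the other 8 genes had 35.6% to 53.2% GC and 1 to 4 CpG pairs. That Nek7 window lies inside the deposited gene, and 104 of its 250 bases lie in GENCODE exons. The Il1rn windows from 24345041 and 24345121 and the Nlrp3 window from 59542436 also lie inside their deposited genes. All 250 bases of the Pycard window lie in GENCODE exons. The Il18 window ends at 50554699, while the deposited gene starts at 50575273. The motif counts below therefore do not all cover sequence directly upstream of a deposited gene. Over all 32851 windows of the table the median was 52.4% GC and 6 CpG pairs. Both strands were searched for 4 motifs. The core of the element bound by NRF2, TGACNNNGC, was found in 0 of the 13 windows and in 10.2% of all windows, and the interferon-stimulated response element in 0 of the 13 and in 2.98% of all. The AP-1 element TGANTCA stood in 1 of the 13 windows, in Il1rn from -141 to -135 relative to the RefSeq start, and in 6.75% of all windows. The NF-kB element stood in 3 of the 13 windows and in 7.25% of all windows. The 3 windows belong to 2 genes, since overlapping windows of Casp4 share the same matches. In Casp4 it matched from -93 to -84, from -92 to -83, an overlapping stretch, and from -39 to -30, and in Nlrp3 from -186 to -177. A match is a run of letters and not a measured binding site, and a window without one says nothing about a factor.

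Within the sensor complex, Nek7 was the gene that differed most. Nek7 (ENSMUSG00000026393, chr1:138482875-138620141, minus strand, GRCm38) had 776 and 763 counts with DI and 2889 and 2741 counts with vehicle. As CPM, relative to TMM-scaled library sizes, these were 45.2 and 40.7 with DI against 155 and 165 with vehicle. Both DI libraries lay far below both vehicle libraries, and the replicates of a group lay close together, at 43.0 ± 3.19 CPM against 160 ± 6.70 CPM (mean ± SD, n = 2 each). The log2 fold change of DI relative to vehicle was -1.90 (SE 0.07), a level 3.72-fold lower. In these bulk samples, fewer cells of a type and less RNA per cell cannot be told apart.

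The other components of the complex did not show such a difference. Nlrp3, the sensor (ENSMUSG00000032691, chr11:59541568-59566956, plus strand), had 29.4 and 29.5 CPM with DI and 32.0 and 24.9 CPM with vehicle. The DI libraries lay between the vehicle libraries, so that the groups overlapped. Its log2 fold change was 0.05 (SE 0.12), with a 95% interval from -0.26 to 0.35, and its sign turned negative when only library size was used for scaling, on the FPKM scale and without vehicle replicate 2. Pycard, the adaptor (ENSMUSG00000030793, chr7:127989708-127993867, minus strand), had 79.2 and 84.4 CPM with DI and 69.4 and 71.8 CPM with vehicle. The groups did not overlap, and the log2 fold change was 0.21 (SE 0.06, 95% interval 0.07 to 0.36), which did not pass the threshold set over all genes. These intervals, and those given below for single genes, are not adjusted for the number of genes.

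Gsdmd and Casp4 had lower levels with DI, and Casp1, which lies next to Casp4, did not. Casp1 (ENSMUSG00000025888, chr9:5298517-5307265, plus strand) had 127 and 132 CPM with DI and 116 and 120 CPM with vehicle, and a log2 fold change of 0.14 (SE 0.05, 95% interval 0.02 to 0.25). The groups did not overlap but lay close together. Casp4 (ENSMUSG00000033538, chr9:5308828-5336783, plus strand) starts 1.56 kb after the end of Casp1, with no gene between. It had 28.1 and 29.6 CPM with DI and 38.3 and 36.2 CPM with vehicle, a log2 fold change of -0.37 (SE 0.07). The call for Casp4 was lost whenever any of the 4 libraries was left out, with fold changes from -0.41 to -0.33.

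Gsdmd, the pore-forming substrate of both caspases (ENSMUSG00000022575, chr15:75862339-75867404), had 120 and 123 CPM with DI and 171 and 168 CPM with vehicle. Both DI libraries lay below both vehicle libraries. The log2 fold change was -0.48 (SE 0.04), a level 1.39-fold lower, and it stayed between -0.58 and -0.45 over 15 alternatives.

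**Figure D1:**
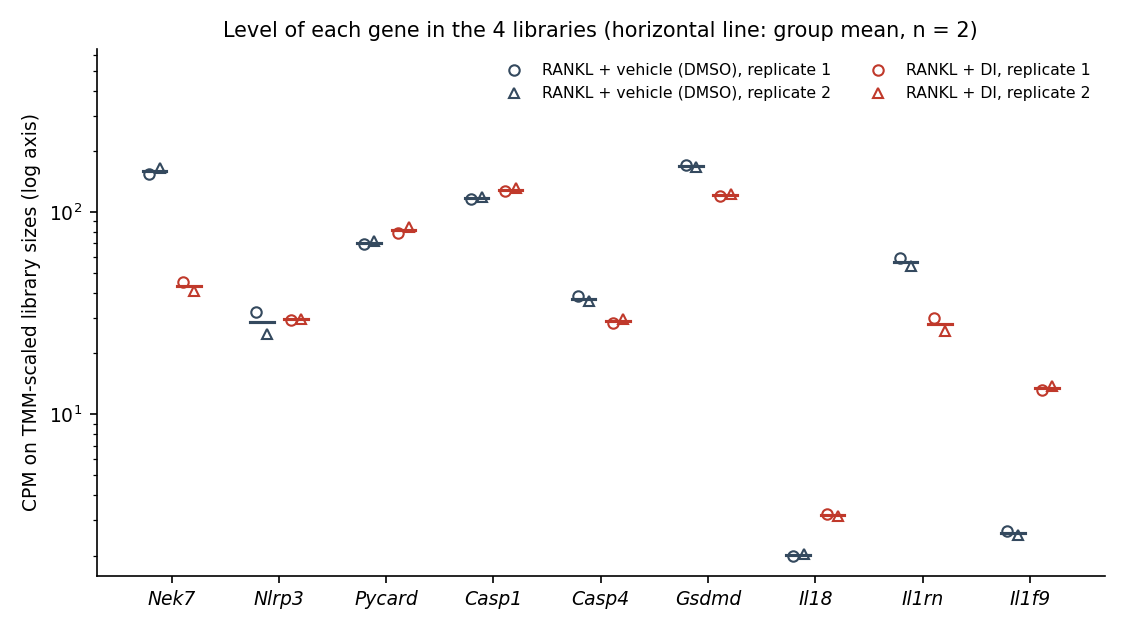
Level of 9 of the 10 genes in each of the 4 libraries, as CPM on TMM-scaled library sizes on a log axis, with circles and triangles for replicates 1 and 2 and a horizontal line at the mean of each group (n = 2). The vehicle libraries of Nek7 sit at 155 and 165 CPM and its DI libraries at 45.2 and 40.7 CPM, Il1f9 shows the opposite order, and for Nlrp3 the DI libraries lie between the vehicle libraries.

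The cytokine genes of the list went in different directions. Il1f9 (ENSMUSG00000044103, chr2:24186476-24193568, plus strand) had 226 and 260 counts with DI and 49 and 42 counts with vehicle. These were 13.2 and 13.9 CPM against 2.63 and 2.52 CPM, so that the lowest DI library lay far above the highest vehicle library. The log2 fold change was 2.39 (SE 0.14), a level 5.23-fold higher with DI, and it was the only gene of the list called higher. Il1rn (ENSMUSG00000026981, chr2:24336853-24351494, plus strand), 143 kb from Il1f9 in the same cluster of IL-1 family genes, was called lower. It had 30.1 and 25.9 CPM with DI and 59.0 and 54.0 CPM with vehicle, a log2 fold change of -1.02 (SE 0.10) and a level 2.02-fold lower.

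Il18 and Il1b, whose products caspase-1 matures, had few counts. Il18 (ENSMUSG00000039217, chr9:50575273-50581837) had 55 and 59 counts with DI and 37 and 34 counts with vehicle, or 3.20 and 3.15 CPM against 1.99 and 2.04 CPM. Both DI libraries lay above both vehicle libraries. The log2 fold change of 0.66 (SE 0.20, 95% interval 0.16 to 1.16) did not pass the threshold in the count test, and it passed in limma on the FPKM values. The deposited counts and FPKM of Il18 imply that a length of 0.714 kb was used for its FPKM. The deposited gene starts at 50575273, while GENCODE M21 starts the gene at 50554827, so reads from its first exons may be missing from these counts.

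Il1b, the gene of the main product of the inflammasome (ENSMUSG00000027398, chr2:129364570-129371139, minus strand), was at 0 counts in both DI libraries and had 5 and 0 counts with vehicle. A count of 0 allows up to 3 counts, or 0.175 and 0.160 CPM in the DI libraries, so the mean of both groups lay at or under this floor. Il1b was not tested, no fold change is given for it, and no ratio of Il1rn to Il1b can be formed, since 3 of the 4 libraries had no Il1b count. Such limits cover counting error only.

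**Figure D2:**
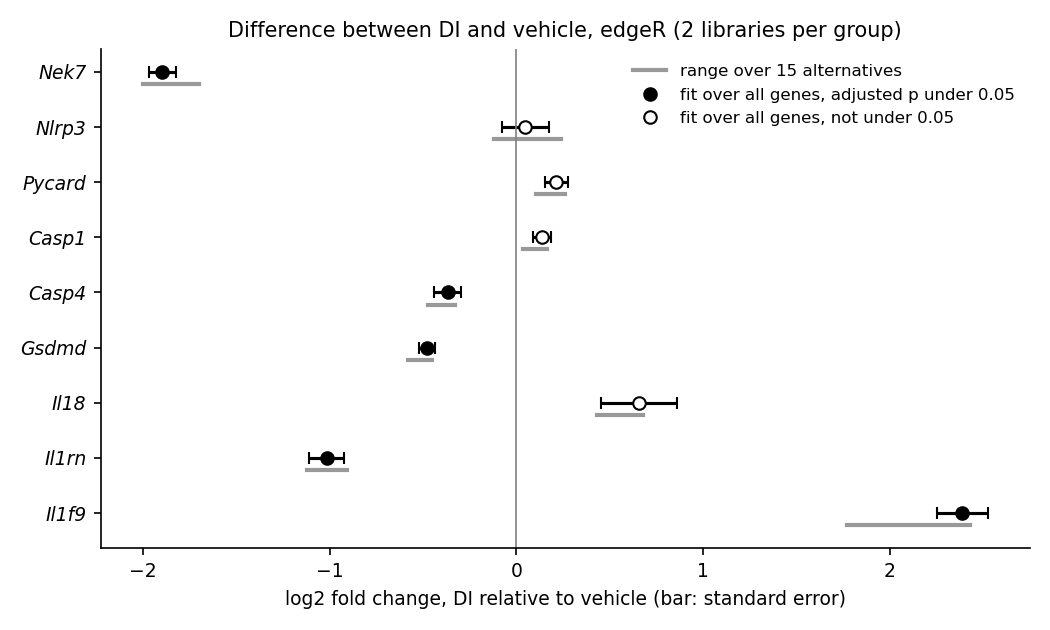
Log2 fold change of DI relative to vehicle for the 9 tested genes, with the standard error of the edgeR fit as a bar, a filled point where the adjusted p over all genes was under 0.05, and a grey line for the range over 15 alternatives. Nek7 at -1.90 and Il1f9 at 2.39 lie at the ends, and the grey line of Nlrp3 reaches from -0.12 to 0.24, on both sides of 0.

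In all, 9 of the 10 genes passed the filter on low counts and 5 of them were called at an adjusted p under 0.05, 1 higher and 4 lower with DI. Over all 12590 genes tested, 14.8% were called, 7.14% higher and 7.7% lower. Scaling by library size only turned the split over all genes from 899 higher and 969 lower to 548 higher and 1932 lower, and left that of the 10 genes at 1 higher and 4 lower. At a log2 fold change beyond 1 in either direction, 3 of the genes (Nek7, Il1rn and Il1f9) were called, against 1.49% of all tested. Il1rn lay close to this cut, with values from -1.12 to -0.91 over 15 alternatives. The groups did not overlap in 8 of the 9, against 58.6% of all tested. The median log2 fold change was 0.05 over the 9 genes and 0.00 over all tested. Since the genes were chosen by this contrast, nothing is read from these counts.

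Levels between genes can be compared only per length, for which the deposited FPKM were used. In the vehicle libraries the order by mean FPKM was Gsdmd (98.7 ± 1.38, SD, n = 2), Casp1 (81.5 ± 1.69), Pycard (17.3 ± 0.416), Nek7 (11.8 ± 0.489), Casp4 (7.97 ± 0.325), Il1rn (7.23 ± 0.457), Nlrp3 (5.72 ± 1.01), Il18 (2.92 ± 0.0552), Il1f9 (1.62 ± 0.0491) and Il1b (0.0591 ± 0.0836). The libraries of neighbours in this order did not overlap. By these FPKM, Casp1 and Gsdmd had far more RNA per length than Nlrp3 and Nek7. The order rests on the lengths that the deposited counts and FPKM imply. These were 14.03 kb for Nek7 and 5.149 kb for Nlrp3, against 1.497 kb for Casp1 and 1.776 kb for Gsdmd. Without length, the vehicle mean of Nek7 was 159.8 CPM, above Casp1 at 117.8 CPM and near Gsdmd at 169.2 CPM. That of Nlrp3 was 28.46 CPM. Whether these lengths match the transcripts in the cells was not tested. With DI, Casp1 (83.4 ± 2.29 FPKM) stood above Gsdmd (66.0 ± 1.63 FPKM). Il1f9 moved from rank 9 to rank 4 (7.91 ± 0.315 FPKM), and Nek7 moved from rank 4 to rank 9 (2.95 ± 0.21 FPKM). With DI, Nek7 overlapped Il1rn (3.33 ± 0.338 FPKM), its neighbour above. Casp4 and Nlrp3, at ranks 5 and 6 with DI, differed by 0.228 FPKM, about the SD of Casp4, 0.224 FPKM. The FPKM were not corrected for the composition of the libraries, as the CPM were.

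**Figure D3:**
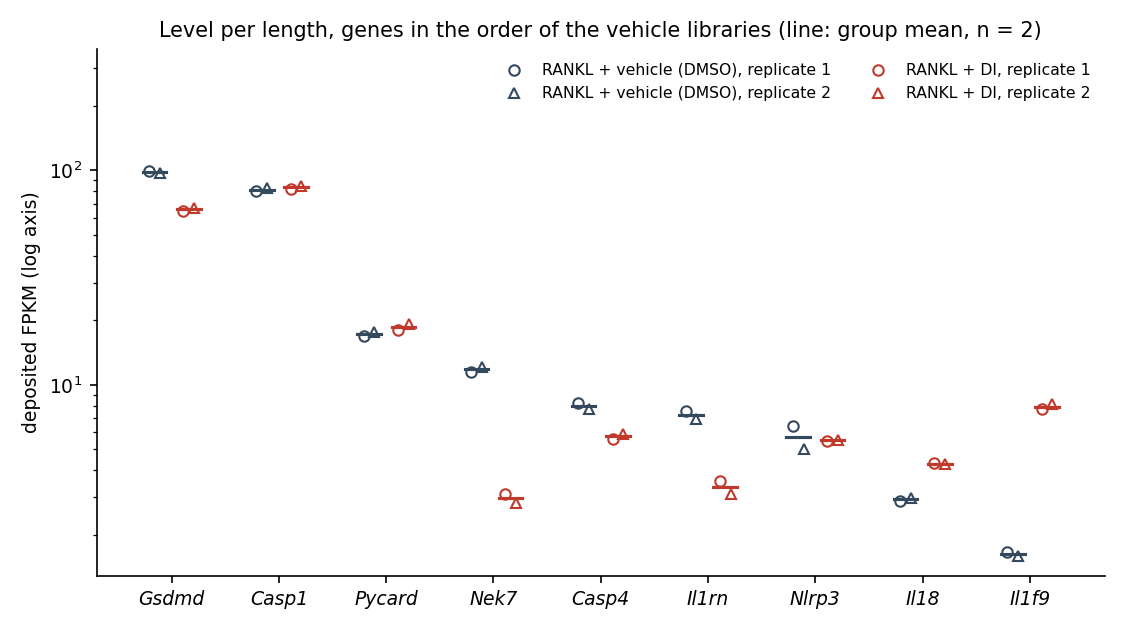
Deposited FPKM of the 9 tested genes in each library on a log axis, ordered by the vehicle mean, with circles and triangles for replicates 1 and 2 and a line at each group mean (n = 2). Gsdmd and Casp1 lie at 64.85 FPKM or higher in all 4 libraries, and Nek7 and Il1f9 exchange places between the groups.

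Other genes of the pathway were taken from 6 lists with 78 genes, of which 12 had no count in any library and 61 passed the filter. By the quasi-likelihood test of edgeR, 6 rose and 6 fell with DI, or 19.7% of those tested against 14.8% of all genes tested. The lists were drawn up with earlier results of these data known, so nothing is read from this share. Many of the genes named below were picked for their large changes, so their adjusted p-values are given as a description. The median log2 fold change of the tested list genes was 0.02. With library size only as the scale, 4 rose and 9 fell, and on FPKM with limma 3 rose and 7 fell. Without DI replicate 2, and likewise without either vehicle library, the number of calls was 7.

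Among 20 regulators of NLRP3 activation, 19 were tested, 3 rose and 3 fell. Panx1, a channel that releases ATP, rose from 64.9 and 63.6 CPM with vehicle to 140 and 139 CPM with DI, a log2 fold change of 1.11 (SE 0.05, edgeR adjusted p = 2.77e-04). Gbp5, an interferon-induced GTPase that promotes NLRP3 assembly, fell from 4.08 and 4.68 CPM to 0.757 and 0.800 CPM, a log2 fold change of -2.48 (SE 0.24, edgeR adjusted p = 0.00284). For both genes the libraries of the groups lay far apart. Eif2ak2, the kinase PKR, fell by 0.57 on the log2 scale (SE 0.08, edgeR adjusted p = 0.00851), and Txnip, the thioredoxin-interacting protein, rose by 0.50 (SE 0.11, edgeR adjusted p = 0.0334). The call for Txnip was lost without replicate 2 of either group, with adjusted p = 0.0596 without the DI library and 0.0635 without the vehicle library (edgeR). It was also lost with library size only as the scale (adjusted p = 0.0546) and on FPKM with limma (adjusted p = 0.0797 and 0.0777).

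The related kinases NEK6 and NEK9 did not pass the main test, and each was called under some alternatives. Nek6, the closest relative of Nek7, had 69.2 and 69.6 CPM with DI and 80.0 and 51.3 CPM with vehicle, a log2 fold change of 0.08 (SE 0.19, 95% interval -0.39 to 0.55, edgeR adjusted p = 0.833). The vehicle libraries of Nek6 lay on either side of the DI libraries, and 3.78% of its exon bases overlap Psmb7 on the opposite strand. Without vehicle replicate 1 the log2 fold change of Nek6 was 0.43 and it was called (edgeR adjusted p = 0.0277), and without vehicle replicate 2 it was -0.20. Nek9, the kinase that activates NEK6 and NEK7 in mitosis, had 200 and 200 CPM with DI and 211 and 211 CPM with vehicle, a log2 fold change of -0.07 (SE 0.04, edgeR adjusted p = 0.252). Nek9 was called lower with library size only as the scale (-0.18, edgeR adjusted p = 0.0256) and on FPKM with limma (adjusted p = 0.0302 and 0.0325). P2rx7, the ATP-gated channel upstream of NLRP3, had 79.9 and 49.8 CPM with DI and 58.5 and 55.9 CPM with vehicle, with groups that overlapped (log2 fold change 0.18, SE 0.21, edgeR adjusted p = 0.616). Without DI replicate 2 it was called at 0.49 (edgeR adjusted p = 0.0102), and when DI replicate 1 was left out the log2 value was -0.20.

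Of 16 inflammasome sensors and NLR relatives, 14 were tested. Naip2, which detects bacterial secretion proteins, rose by 0.31 (SE 0.05, edgeR adjusted p = 0.0146). Mefv, which encodes pyrin, fell by 0.37 on the log2 scale (SE 0.08, edgeR adjusted p = 0.029). The sensors Aim2, which binds DNA, and Nlrc4, the partner of the NAIPs, did not pass, with log2 fold changes of 0.02 (SE 0.07, edgeR adjusted p = 0.912) and 0.13 (SE 0.14, edgeR adjusted p = 0.578). Of 13 cell death caspases, gasdermins and partners, 10 were tested. Ninj1, which ruptures the plasma membrane at the end of lytic death, rose by 0.39 (SE 0.05, edgeR adjusted p = 0.00517). Zbp1, a sensor of Z-form nucleic acid, fell from 7.36 and 7.26 CPM to 3.44 and 3.09 CPM (log2 fold change -1.16, SE 0.15, edgeR adjusted p = 0.00641). Its partner kinase Ripk3 fell by 0.27 on the log2 scale (SE 0.06, edgeR adjusted p = 0.0334). The calls for Mefv and Ripk3 were lost whenever any of the 4 libraries was left out, and that for Naip2 was lost without vehicle replicate 1. A change of test also ended these calls. DESeq2 gave adjusted p = 0.0706 for Mefv and 0.0596 for Ripk3, and edgeR's exact test gave 0.107 for Ripk3. In limma on FPKM, Naip2 had adjusted p = 0.053 and 0.0544.

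The ligands of the IL-1 family outside the 10 genes were near absent. Of 6, none was tested. Il33, Il1f5, Il1f6, Il1f8 and Il1f10 had 0 counts in every library, and Il1a had 0 and 6 counts with DI and 5 and 0 counts with vehicle. Of 11 receptors and decoys, 6 were tested and 1 was called. Il18bp, the secreted decoy that binds IL-18, rose from 6.98 and 5.82 CPM to 9.96 and 11.6 CPM (log2 fold change 0.75, SE 0.15, edgeR adjusted p = 0.0265). Of its exon bases, 2.64% overlap Numa1 on the opposite strand, which had a mean of 4358.5 counts, while Il18bp had 97 to 217, and the part of these reads in the value was not tested. The receptor of IL-36γ, Il1rl2, had 4.31 and 4.11 CPM with DI and 4.72 and 4.14 CPM with vehicle (log2 fold change -0.08, SE 0.17, edgeR adjusted p = 0.802). The shared receptor chain Il1rap had 20.5 and 19.8 CPM with DI and 22.9 and 25.7 CPM with vehicle (log2 fold change -0.27, SE 0.09, edgeR adjusted p = 0.119), and was called with library size only as the scale (adjusted p = 0.0427). The IL-1 receptor Il1r1 had 2 and 9 counts with DI and 10 and 11 counts with vehicle and was not tested, and the decoy Il1r2 and the IL-18 receptor Il18r1 had 0 counts in every library. All 12 signalling genes below these receptors were tested and 0 were called by edgeR, with log2 fold changes from -0.11 to 0.51 and a median of 0.07. At an unadjusted p under 0.05, 1 of them passed in edgeR, and none was called by DESeq2, limma-voom, edgeR's exact test or limma on FPKM. The call for Il18bp was lost without DI replicate 2 or without either vehicle library.

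**Figure D4:**
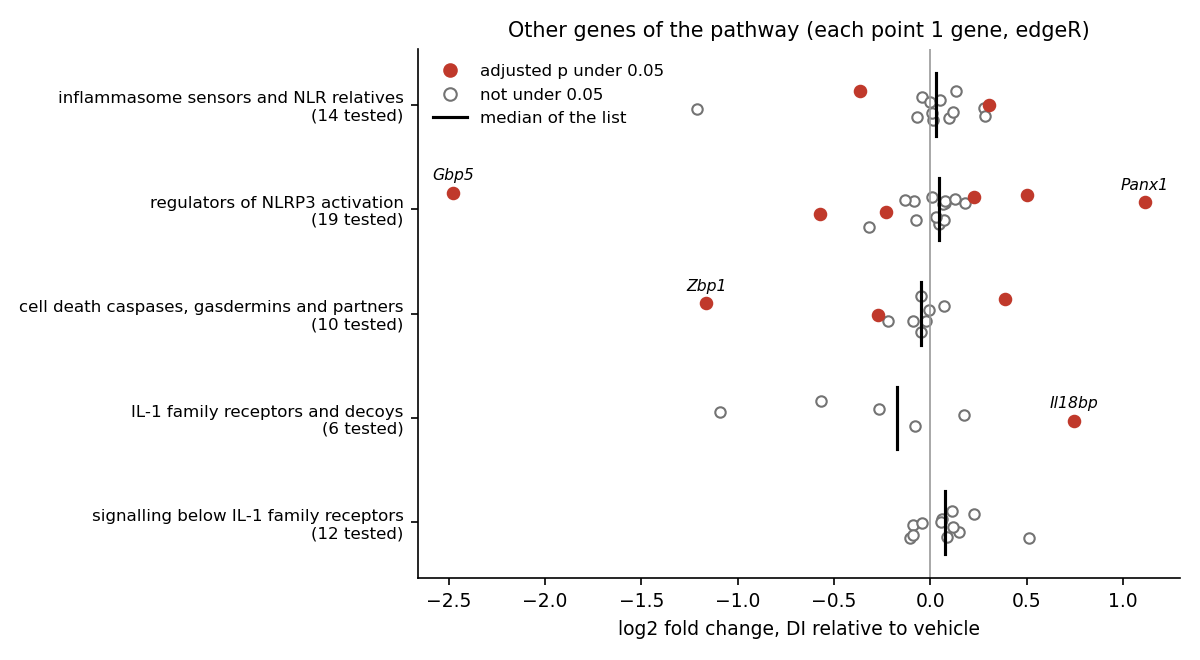
Log2 fold change of DI relative to vehicle for the 61 tested genes of the pathway lists, each point 1 gene from the edgeR fit, filled where the adjusted p was under 0.05, with a black line at the median of each list. Called points lie on both sides of 0 in the regulators and the cell death genes, Gbp5 (-2.48) and Panx1 (1.11) are farthest apart, and no signalling gene is filled.

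The annotation deposited with the counts puts 56 genes in the KEGG pathway of NOD-like receptor signalling. The 5 of the 10 genes among them, Casp1, Il18, Il1b, Nlrp3 and Pycard, were not called by edgeR, with 4 tested, and 1, Il18, was called by limma on FPKM. As these genes were chosen by this contrast, nothing is read from the calls or from their absence. Of the other 51 genes, 47 were tested, 4 rose and 4 fell, or 17% against 14.8% of all genes tested. With library size only as the scale, 3 rose and 7 fell, and on FPKM with limma 0 rose and 7 fell. Nfkbia, the inhibitor of NF-kB, fell by 0.49 on the log2 scale (SE 0.04, edgeR adjusted p = 0.00233), and Birc3, an inhibitor of apoptosis, fell by 0.31 on the log2 scale (SE 0.05, edgeR adjusted p = 0.0127). Ikbkg, the regulatory subunit of the kinase that marks the inhibitor of NF-kB, rose by 0.45 (SE 0.08, edgeR adjusted p = 0.0179). Of its exon bases, 5.15% overlap G6pdx on the other strand. G6pdx had a mean of 7742.2 counts, while Ikbkg had 1515 to 2613, and the part of these reads in the value was not tested. Ccl12, a chemokine, was counted 28 and 24 times with vehicle and 11 and 9 times with DI (log2 fold change -1.39, SE 0.34, edgeR adjusted p = 0.0464). The number of calls in this pathway went from 8 to 2 without vehicle replicate 1, to 4 without vehicle replicate 2 and to 5 without DI replicate 2. Ccl12 lost its call without any 1 of the libraries, Ikbkg without vehicle replicate 2 and Birc3 without vehicle replicate 1. Ccl12 also lost its call in limma-voom (adjusted p = 0.0547), and Ikbkg lost its call in 3 of 15 alternatives in all.

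The genes most like Nek7, Nlrp3 and Il1f9 were those at the smallest Euclidean distance of log2 CPM, centred on the mean of the 4 libraries, among 11008 genes. The 4 libraries are the only points in this measure. Nearest to Nek7 were Ifit3 (distance 0.101), Gm12543 (0.119) and Cmpk2 (0.248), with log2 fold changes of -1.88, -1.88 and -1.69. Ifit3 and Cmpk2 are interferon-induced genes. Ifit3 has a near copy, Ifit3b, and Gm12543 is nearly identical to a part of Snx2. Of the exon bases of Gm12543, 44.2% also overlap Snx30 on the same strand, which had a mean of 2270.2 counts. Reads of these genes may therefore be shared. Nearest to Nlrp3 were Ccdc84 (0.0306), Abcc10 (0.0337) and Nlrx1 (0.0349), with log2 fold changes of 0.06, 0.05 and 0.05. Nearest to Il1f9 were Serpinb9b (0.231), which encodes a serpin, Tarm1 (0.374), a receptor of myeloid cells, and Gm38253 (0.476). Over 22.7% of its length, the transcript of Gm38253 is identical to Lrif1, whose exons overlap it on the same strand, and none of the 10 genes had a near copy.

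The libraries held 16085692 to 19403480 counts, which sets 3 counts at 0.160 to 0.180 CPM. The labelled cell type was checked on 8 macrophage markers, which were all detected. Their summed level was 28621 and 29428 CPM with DI against 23255 and 22394 CPM with vehicle. Most of this sum was Lyz2, the highest, with 22772 and 23786 CPM with DI and 18289 and 17630 CPM with vehicle. Of the 8 markers, 5 were called higher and 1 lower, Fcgr1 (-0.60, edgeR adjusted p = 0.0314). Of 8 osteoclast markers, Calcr was at 0 in all libraries, 1 was called higher and 4 lower, and the sum, led by Atp6v0d2, was 601 to 610 CPM with DI and 610 to 630 CPM with vehicle. The 4 called lower were Ocstamp, Mmp9, Acp5 and Ctsk, with log2 fold changes of -2.52, -1.64, -0.95 and -0.58, and Atp6v0d2, the most abundant, was the 1 called higher (0.27, edgeR adjusted p = 0.00623). Dcstamp did not pass (-0.19, edgeR adjusted p = 0.367). Of 10 neutrophil markers 4 were tested and 0 called by edgeR (1 at an unadjusted p under 0.05, 0 by DESeq2, limma-voom, the exact test or limma on FPKM). They summed to 10.7 and 11.2 CPM with DI and 9.395 and 10.99 CPM with vehicle, with Ly6g and Retnlg at 0 and S100a9 the highest by FPKM. The markers of B cells, T and NK cells, mast cells and basophils, and dendritic cells each summed to under 1 CPM in every library, with Cd79b, Klrb1c, Cpa3 and Xcr1 the highest of each by FPKM, and the stromal markers, led by Col1a1 to 39.4 to 49.7 CPM. Osteoclast and macrophage markers, in both directions, differed in the same comparison as Nek7, Il1rn, Gsdmd and Il1f9. The part of these cell types in the values of those genes was not tested.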

How the data were processed

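The authors deposited raw counts of paired-end reads per gene and library, together with FPKM values computed relative to gene length and library total. They also deposited the names of the KEGG pathways of each gene. The submitters' processing notes name the builds GRCm38 and mm10. Which aligner, counting program and annotation were used, and whether strand was considered, is not given in the sources used here. Reads of genes that overlap on opposite strands, such as Pycard and Gm45205 (12.8% of the exon bases of Pycard, a mean of 10.8 counts for Gm45205), therefore cannot be told apart.

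Libraries were grouped by their labels. The counts were tested as deposited with edgeR 4.0.16 in R 4.3.3 (TMM factors, default filter on low counts, quasi-likelihood test with condition as the only term, 2 residual degrees of freedom before moderation), with Benjamini-Hochberg adjustment over the 12590 genes that passed. A standard error is the absolute log2 fold change divided by the root of F. The steps were run on simulated counts with known changes, drawn with the spread fitted to these libraries. This checks the steps only, and cannot show whether the replicates are technical. Replicates differed by more than sampling noise (chi-square per degree of freedom 7.57 with DI and 7.74 with vehicle). Positions were compared with GENCODE M21, near copies were sought with BLAST+ 2.17.0 (95% identity or more, on 20% of a transcript or more), and upstream sequences came from RefSeq.

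The 10 genes and all lists were chosen with earlier results of these data known. Genes named outside the 10 were, per list, up to 4 called genes with the largest change and an average log2 CPM over 0, a few chosen for their role (Il1a, Il1r1, Il1r2, Il1rap, Il1rl2, Il18r1, Il18bp, Nek6, Nek9, Txnip, P2rx7, Aim2, Nlrc4 and Ninj1), likewise 4 of the KEGG pathway, the 3 genes nearest to Nek7, Nlrp3 and Il1f9 in pattern with an average log2 CPM over 1, and marker genes. As alternatives, scaling was done by upper quartile, by the size factors of DESeq2 1.42.0 or by library size only, the filter was dropped or set to 10 counts per library, and the test was replaced by the Wald test of DESeq2, by limma 3.58.1 (voom), or by edgeR's exact test. Further alternatives were log2(FPKM + 1) and log2(FPKM + 0.01) in limma, the replicate number as a block, a log2 fold change over 1, and each library left out.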

Additional observations from a re-analysis of the deposited data

How the results depend on the processing

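The directions of Nek7, Pycard, Casp1, Casp4, Gsdmd, Il18, Il1rn and Il1f9 were kept under the 15 alternatives run for each gene, and so were the calls of Nek7, Gsdmd, Il1rn and Il1f9. Casp4 lost its call when a library was left out, and Il18 gained one in limma on FPKM. With 1 library left out, 1087 to 1394 genes were called in all against 1868, 4 of the 10 genes, 7 to 9 pathway genes and 2 to 7 genes of the NOD-like receptor pathway. The lone library of a group is then assumed to vary like the other group. With a log2 fold change over 1 required, 188 genes were called in all, 3 of the 10 genes, 3 pathway genes and 1 gene of the NOD-like receptor pathway.

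Nothing says that the replicate numbers pair cultures, and deviations of same-numbered libraries had a correlation of -0.03 over 2 pairs. With the replicate number as a block, 1389 genes were called, with 5 of the 10 genes, 7 pathway genes and 7 genes of the NOD-like receptor pathway. Among the named genes, the block ended the calls of Txnip, Mefv, Ripk3, Il18bp and Ccl12 (edgeR adjusted p = 0.0709, 0.06, 0.0675, 0.0626 and 0.0845).

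Scaling by library size only shifted the median of all genes to -0.10 on the log2 scale and the calls from 899 higher and 969 lower to 548 and 1932, and limma on log2(FPKM + 0.01) shifted the median to -0.10. Signs turned in genes that were not called in the main test, of which Nek6 was called without vehicle replicate 1 (0.434) and P2rx7 without DI replicate 2 (0.486). With library size only, log2(FPKM + 1) and log2(FPKM + 0.01), in this order, the log2 fold changes were -0.0556, -0.0373 and -0.0422 for Nlrp3, -0.0875, -0.0768 and -0.0879 for Aim2, -0.0462, -0.0291 and -0.0321 for Ccdc84, -0.0535, -0.0111 and -0.034 for Abcc10, and -0.0554, -0.0334 and -0.0386 for Nlrx1, and with library size only -0.0264 for Nek6. With 1 library left out, values ran from -0.118 to 0.241 for Nlrp3, -0.031 to 0.0651 for Aim2, -0.205 to 0.434 for Nek6, -0.199 to 0.486 for P2rx7, -0.166 to 0.0216 for Il1rl2, -0.103 to 0.248 for Ccdc84, -0.13 to 0.269 for Abcc10 and -0.137 to 0.267 for Nlrx1. The cause of these changes was not tested. Over all named genes and alternatives, 510 values kept their direction and side of the threshold, 40 lost a call, 8 gained one and 25 changed sign. At these depths, Il1b, Il1a and Il1r1 were too low to be tested.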
